A study of Rattus norvegicus with 30 samples.

Results

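The genes described here make, degrade and sense prostaglandin E2 (PGE2), and 10 were listed: the phospholipase Pla2g4a, the cyclooxygenases Ptgs1 and Ptgs2, the PGE2 synthases Ptges, Ptges2 and Ptges3, the degrading enzyme Hpgd, and the receptors Ptger2, Ptger3 and Ptger4. They were chosen by name from the pathway, with earlier results of these data known. All 10 were among the 14217 genes measured, and where a gene had several probe sets the one with the highest mean over all arrays was used, so that no member was lost to a filter. Arrays were run on oesophageal epithelium of 30 Sprague-Dawley rats, all male, which all received 4 intragastric doses of 2 mg/kg of the oesophageal carcinogen N-nitrosomethylbenzylamine (NMBA) from week 5 on. The rats were 4 weeks old at the start, and tissue was taken 15 weeks after the first NMBA dose, although the labels leave the sampling time of the shorter antimiR group unclear.

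An LNA oligonucleotide that binds and blocks miR-31 (antimiR) was injected into the tail vein of 2 groups of 5 zinc-deficient (ZD) rats. Dosing began with 20 mg/kg as a load, 9 injections of 6 mg/kg followed within the first 5 weeks in both groups, and the 20-week group received 20 more. A further 5 ZD rats, fed ad libitum, and 5 zinc-sufficient (ZS) rats, pair-fed to them, received no oligonucleotide. Because no control oligonucleotide was given, miR-31 inhibition and the dosing itself cannot be told apart. The other 10 rats were miR-31-/- animals made with CRISPR/Cas9 in the same strain, 6 on ZD and 4 on ZS. Their miR-31+/+ littermates were not analysed here, and the labels do not give the number of founders. Each array carries its own LF number, by which it is named here, and was taken as 1 rat.

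Values are log2 expression values. On the 20 arrays of unedited rats the array medians lay between 5.37 and 5.45, and on the 10 knockout arrays between 5.81 and 5.93. Separate normalization of these sets was assumed, so no level was compared between them. Squamous epithelium was present on every array by the genes Krt4, Krt5, Krt13 and Tp63. Their lowest values on any array were 14.02, 11.91, 13.90 and 10.50. Muscle transcripts were present as well, so these genes do not show epithelium alone. Means of 10 smooth muscle genes ran from 7.10 to 10.57 on unedited and from 9.38 to 11.75 on knockout arrays. Means of 9 skeletal muscle genes ran from 5.67 to 10.95 on unedited and from 8.63 to 11.10 on knockout arrays. No probe set for miR-31 was named, so the knockout and antimiR labels could not be checked at their target. "Rose" and "fell" are used of differences with an adjusted p below 0.05 in a limma fit over all genes.

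Prostaglandin E2 is made from arachidonic acid, which cytosolic phospholipase A2 releases from membranes. A cyclooxygenase turns it into the intermediate prostaglandin H2, and a terminal synthase converts that to PGE2. The constitutive cyclooxygenase is encoded by Ptgs1 and the inducible one, which inflammatory signals and growth factors switch on, by Ptgs2. PGE2 acts on cells through the receptors EP1 to EP4 and is inactivated by the dehydrogenase that Hpgd encodes; in squamous epithelia it is known for its part in inflammation and proliferation.

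Sequences are given to show what was targeted and where these genes begin. The mature miR-31 is the molecule that the antimiR binds and that the knockout removes; it is printed with its seed, bases 2 to 8, in capitals.
rno-miR-31a-5p: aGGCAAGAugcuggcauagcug
This RNA is 22 bases long and lies at chr5:108714906-108714927 on the minus strand in RefSeq's GRCr8 build. RefSeq promoters were found for 9 of the 10 genes. Those of Ptgs2, Ptges and Hpgd, which changed with diet in unedited rats, are shown as the 250 bases before the annotated start, with motif matches in capitals.
Ptgs2: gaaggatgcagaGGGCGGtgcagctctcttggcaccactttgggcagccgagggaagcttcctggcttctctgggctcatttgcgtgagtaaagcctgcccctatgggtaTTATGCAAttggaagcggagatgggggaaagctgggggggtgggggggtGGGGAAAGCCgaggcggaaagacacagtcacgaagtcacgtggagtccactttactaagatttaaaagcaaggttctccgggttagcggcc
Ptges: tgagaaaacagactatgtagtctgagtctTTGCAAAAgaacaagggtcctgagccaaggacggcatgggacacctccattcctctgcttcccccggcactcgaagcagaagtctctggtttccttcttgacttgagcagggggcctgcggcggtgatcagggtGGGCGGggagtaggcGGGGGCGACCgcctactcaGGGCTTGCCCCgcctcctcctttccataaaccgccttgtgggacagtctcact
Hpgd: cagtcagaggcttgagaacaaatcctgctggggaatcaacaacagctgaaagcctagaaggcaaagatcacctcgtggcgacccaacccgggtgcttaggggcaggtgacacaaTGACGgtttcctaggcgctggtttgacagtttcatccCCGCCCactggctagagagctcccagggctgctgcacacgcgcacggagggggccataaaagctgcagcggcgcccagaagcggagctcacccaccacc
They lie in GRCr8 at chr13:64713813-64714062 (plus strand), chr3:34586988-34587237 (minus strand) and chr16:39034832-39035081 (minus strand).

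Letters of 6 motifs were searched on both strands. Those of NF-kB were GGG and CC with any 5 bases between them, and those of C/EBP were TTNNGCAA. The core of the cyclic AMP response element was taken as TGACG, which lies within no other motif searched, whereas NF-kB and GC box matches can overlap. For AP-1 the letters TGANTCA were used. The TATA box was read as TATAAA, and the GC box as CCGCCC. Positions are counted back from the annotated start. The Ptgs2 window held an NF-kB match at -91, a C/EBP match at -140 and a GC box at -238. The Ptges window held the same kinds: NF-kB matches at -72, -53 and -52, which partly overlap, a C/EBP match at -221 and a GC box at -87. In the Hpgd window there were a cyclic AMP response match at -136 and a GC box at -99, and no NF-kB or C/EBP match of these letters. Among the windows not shown, those of Ptgs1, Ptges3, Ptger2 and Ptger3 also held NF-kB matches, and those of Pla2g4a and Ptger4 did not. None of these genes passed with diet in unedited rats. Over 33469 RefSeq promoters of this length, 42.3% held the NF-kB form, 9.22% the C/EBP form, 18.2% the cyclic AMP response core, 30.5% the GC box, 12.9% the TATA box and 6.34% the AP-1 form. These matches describe letters and not bound sites. Ptgs2 and Pla2g4a are neighbours on chromosome 13 with 0 annotated protein-coding genes between them.

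Ptgs2 was high in 4 of the 5 untreated ZD rats and low in nearly all others. After 5 weeks of antimiR the 5 arrays, LF6 to LF10, stood at 3.45, 6.76, 4.20, 3.37 and 4.20 log2 units. After 20 weeks of antimiR, arrays LF1 to LF5 stood at 2.91, 3.53, 3.44, 2.78 and 2.79. Untreated ZD arrays LF11 to LF15 stood at 6.86, 9.14, 7.41, 8.29 and 3.15, against 3.08, 3.26, 3.04, 3.04 and 3.09 on the ZS arrays. ZD array LF15 thus lay inside the ZS range, and antimiR array LF7 lay close to the lowest of the 4 high ZD arrays.

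**Figure D1:**
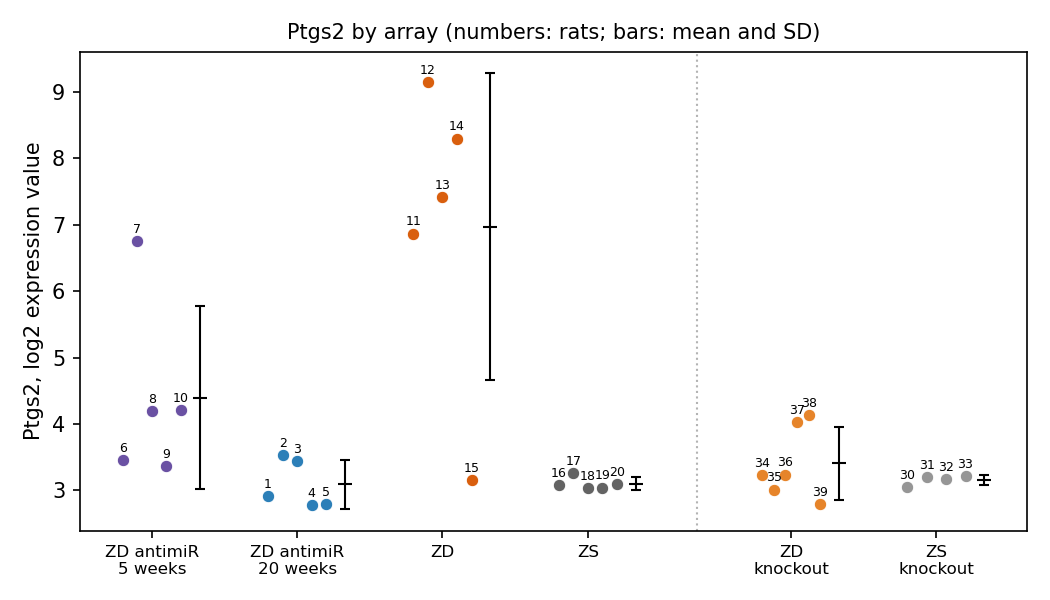
Ptgs2 in log2 expression values on each of the 30 arrays, with LF numbers beside the points and the mean and SD of each group as bars; the dotted line parts the unedited from the knockout arrays, for which separate normalization was assumed. Of the ZD arrays 4 lie between 6.86 and 9.14 and LF15 lies at 3.15, while all knockout arrays lie between 2.79 and 4.14.

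On zinc deficiency Ptgs2 rose by 3.87 (SE 0.68, limma adjusted p = 0.000612), a 14.6-fold difference, with means of 6.97 ± 2.31 on ZD and 3.10 ± 0.09 on ZS (SD, n = 5 each). The exact two-sided permutation test over the 10 arrays gave p = 0.0159, where the smallest it can give is 0.00794. Without ZD array LF15 the difference was 4.83 (adjusted p = 2.00e-06). With only the 2 compared groups in the limma fit, the difference of 3.87 had an SE of 0.89 and an adjusted p of 0.0188. The ZS values lay between the 3.93rd and 6.88th percentiles of all genes on their arrays, close to the lower end of the scale, where differences on such arrays are compressed; the files used here give no detection calls.

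Smooth muscle transcripts moved with diet as well. Of 10 smooth muscle genes 9 fell on ZD (median difference -2.30), and their array means spanned 7.10 to 8.38 on ZD, against 9.11 to 10.57 on ZS. Within the untreated ZD group the order was the reverse of that of Ptgs2: the list stood at 7.10 on LF12, 7.44 on LF14, 7.73 on LF13, 7.94 on LF11 and 8.38 on LF15. In both antimiR groups the array with the lowest mean had the highest Ptgs2: LF7 at 7.28 with Ptgs2 at 6.76, and LF2 at 7.25 with Ptgs2 at 3.53. On LF10 the mean was 7.62 with Ptgs2 at 4.20. Of 9 skeletal muscle genes 0 rose and 0 fell, with a mean of 5.67 on LF15 and 7.51 to 10.37 on the other ZD arrays. The part of skeletal muscle was not tested. With the smooth muscle mean as a covariate, which itself differs with diet, the Ptgs2 difference was 2.19 (limma adjusted p = 0.190) and 0 of the 10 pathway genes passed. In bulk tissue, fewer cells of a type and less RNA per cell cannot be told apart.

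A few of the genes listed for white blood cells and vessels rose on ZD in unedited rats and none fell, where 6.94% of all genes rose and 6.95% fell. Of 6 endothelial genes 2 rose and 0 fell (median difference 0.34), with array means of 6.44 to 6.77 on ZD and 5.99 to 6.27 on ZS, without overlap. Macrophage genes rose for 1 of 9 (median difference 0.27), with means of 6.72 to 6.91 on ZD and 6.22 to 6.64 on ZS, also without overlap. Of 8 neutrophil and mast cell genes 1 rose, S100a8, and 7 did not pass. Their median difference was 0.10, with overlapping means of 5.75 to 7.22 on ZD and 5.09 to 6.01 on ZS. A rise of 1 gene does not show a rise of these cells. None of these lists had a gene at 0, since the scale has no 0. Their part in the Ptgs2 and Ptges differences was not tested.

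Among the 10 genes, 2 rose and 1 fell on ZD in unedited rats, Ptgs2 and Ptges in the first direction and Hpgd in the second, and 7 did not pass. Of all genes tested 6.94% rose and 6.95% fell. The median difference was 0.02 over the 10 genes and 0.00 over all genes.

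Pla2g4a, which encodes the cytosolic phospholipase that supplies arachidonic acid, was 0.39 higher on ZD and missed the threshold (SE 0.14, 95% interval 0.11 to 0.68, adjusted p = 0.0572). Its values were 7.98, 8.67, 8.25, 8.72 and 8.13 on ZD arrays LF11 to LF15, against 7.93, 8.09, 7.66, 8.19 and 7.92 on ZS arrays LF16 to LF20. The groups overlapped, and the threshold was passed when ZD array LF11, ZD array LF15 or ZS array LF19 was left out (lowest adjusted p = 0.0221). The constitutive cyclooxygenase Ptgs1 stood at 7.75, 8.36, 6.95, 7.51 and 7.20 on ZD, against 6.96, 7.27, 7.14, 7.46 and 7.04 on ZS, a difference of 0.38 (SE 0.21, adjusted p = 0.247). Its ZD and ZS ranges overlapped, with LF12 highest for Ptgs1 as for Ptgs2.

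Ptges encodes the inducible microsomal synthase that usually works downstream of the inducible cyclooxygenase. Its values were 7.78, 8.01, 7.76, 8.65 and 8.43 on ZD, against 7.16, 6.83, 6.51, 7.53 and 6.67 on ZS. Every ZD array was above every ZS array, including LF15, where Ptgs2 was low. Ptges rose by 1.19 (SE 0.26, adjusted p = 0.00312), a 2.28-fold difference, and passed whichever of the 10 arrays was left out. A second Ptges probe set gave 0.70 (adjusted p = 0.0101), with ranges of 6.38 to 7.19 on ZD and 5.94 to 6.34 on ZS. With the smooth muscle covariate the Ptges difference kept its size, at 1.20, but missed the threshold (adjusted p = 0.0942).

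The other synthases did not pass. Ptges2, a membrane-associated synthase, averaged 8.32 ± 0.18 on ZD and 8.40 ± 0.08 on ZS, a difference of -0.07 (95% interval -0.22 to 0.07). Ptges3, the cytosolic synthase that is also the Hsp90 co-chaperone p23, averaged 12.52 ± 0.14 on ZD and 12.42 ± 0.03 on ZS, a difference of 0.10 (95% interval -0.07 to 0.26).

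Hpgd, whose product starts the breakdown of prostaglandins, moved the other way from Ptges. Its values were 10.15, 9.78, 10.20, 11.53 and 9.61 on ZD, against 10.98, 11.15, 11.06, 11.45 and 10.96 on ZS. Of the ZD arrays 4 lay below all ZS arrays, and LF14 lay above them all. Hpgd fell by 0.86 (SE 0.29, adjusted p = 0.0443), a 1.82-fold lower level. Leaving out single arrays ended that call in 9 of 10 cases (adjusted p up to 0.122), while without LF14 the difference was -1.18 (adjusted p = 0.00442). The second Hpgd probe set gave -0.76 (adjusted p = 0.124).

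No PGE2 receptor gene passed. Ptger2, for the cyclic AMP raising receptor EP2, averaged 3.83 ± 0.19 on ZD and 3.98 ± 0.18 on ZS. Ptger4, for EP4, which raises cyclic AMP as well, averaged 4.29 ± 0.14 on ZD and 4.35 ± 0.15 on ZS. Ptger3, for EP3, which mainly lowers cyclic AMP, spread over 4.36 to 6.61 on ZD, against 5.88 to 6.59 on ZS, a difference of -0.47 (95% interval -1.16 to 0.22). Ptger2 and Ptger4 stayed between the 12.18th and 25.36th percentiles of all genes on the unedited arrays, so small changes in them could go unseen.

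**Figure D2:**
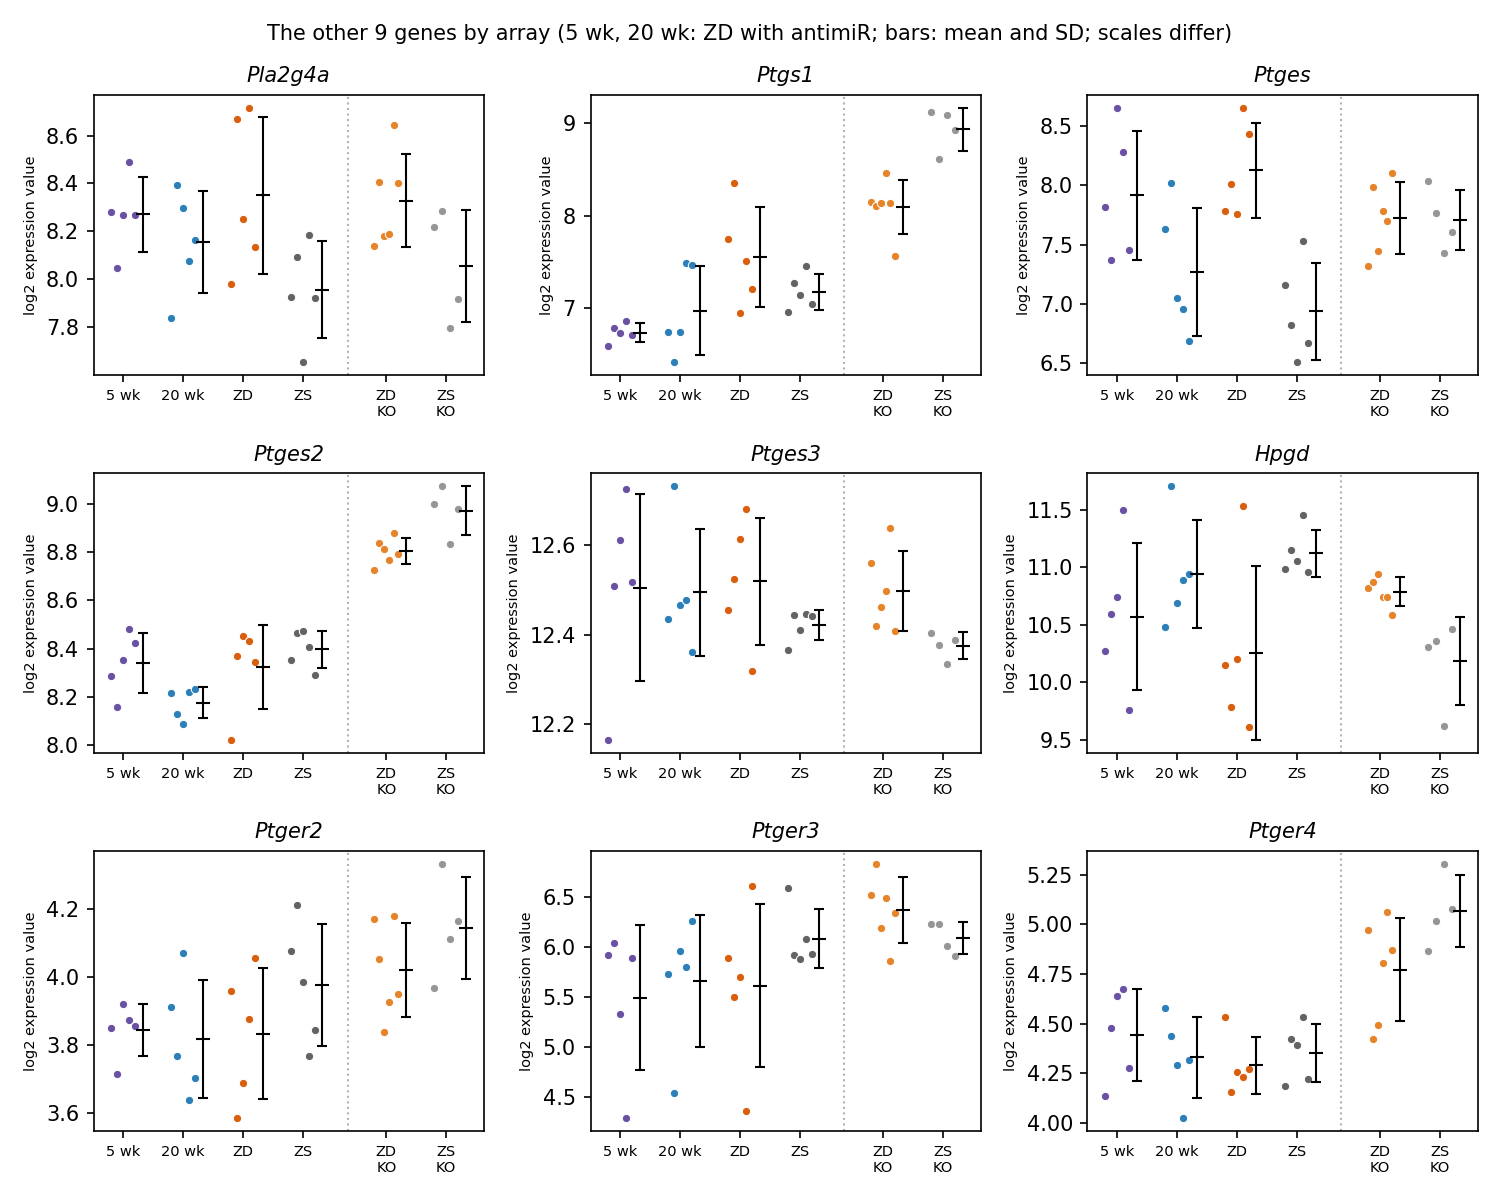
Log2 expression values of the 9 genes other than Ptgs2 on each array, with group means and SD as bars; 5 wk and 20 wk are the antimiR groups on ZD, KO is knockout, and each panel has its own scale. Ptges lies higher on all ZD than on all ZS arrays of unedited rats, and in unedited rats Hpgd lies lower on every ZD array but LF14 than on all ZS arrays.

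The antimiR comparisons ask whether the transcripts that differ with zinc deficiency also differ when miR-31 is inhibited. They share the 5 untreated ZD arrays with the diet comparison, so values high on those arrays enter both with opposite sign. After 20 weeks of antimiR, Ptgs2 fell by 3.88 (SE 0.68, limma adjusted p = 0.0137), with means of 3.09 ± 0.37 in antimiR rats and 6.97 ± 2.31 in untreated ZD rats (SD, n = 5 each). All 5 antimiR arrays lay below the 4 high ZD arrays, and 3 lay below LF15 as well. The exact two-sided permutation p was 0.0238, and without LF15 the difference was -4.84 (adjusted p = 1.98e-06). When the 2 groups alone were fitted, the same difference had an adjusted p of 0.154, and with the smooth muscle covariate it was -3.07 (adjusted p = 0.0435).

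Ptgs2 was the 1 pathway gene that fell after 20 weeks, and 0 rose. Of all genes 0.485% fell and 0.162% rose, 69 and 23 genes. At an unadjusted p below 0.05 there were 5 of the 10 pathway genes and 2108 of all 14217. Ptges stood at 7.63, 8.02, 7.05, 6.96 and 6.69 after 20 weeks, against 7.78, 8.01, 7.76, 8.65 and 8.43 in untreated ZD rats. The difference of -0.86 missed the threshold (SE 0.26, 95% interval -1.38 to -0.33, adjusted p = 0.107), and antimiR array LF2 lay inside the ZD range. It passed without LF2, at -1.04 (adjusted p = 0.0259).

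Hpgd stood at 10.48, 11.71, 10.69, 10.89 and 10.94 after 20 weeks, against 10.15, 9.78, 10.20, 11.53 and 9.61 in untreated ZD rats. All antimiR arrays lay above the 4 low ZD arrays, and the difference of 0.68 did not pass (95% interval 0.09 to 1.27, adjusted p = 0.257). Ptgs1 was at -0.58 (adjusted p = 0.181), while its second probe set was at 0.03. Pla2g4a was at -0.20, Ptges2 at -0.15 and Ptges3 at -0.02, and the receptors Ptger2, Ptger3 and Ptger4 were at -0.02, 0.05 and 0.04. The pathway median was -0.09, against -0.01 over all genes.

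The same marker lists differed between these groups without a gene passing. Smooth muscle means ran from 7.25 to 9.80 after 20 weeks and from 7.10 to 8.38 in untreated ZD rats. Macrophage means were 6.03 to 6.23 after 20 weeks and 6.72 to 6.91 in untreated ZD rats, without overlap. Neutrophil and mast cell means were 4.78 to 5.83 after 20 weeks and 5.75 to 7.22 in untreated ZD rats. Their part in the Ptgs2 difference was not tested.

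After 5 weeks of antimiR no pathway gene passed, and 0% of all genes rose and 0% fell, with a smallest adjusted p of 0.0640 in limma. Unadjusted p-values were below 0.05 for 2 pathway genes, Ptgs2 and Ptgs1, and for 1021 of all genes. Ptgs2 differed by -2.58 (SE 0.68, 95% interval -3.98 to -1.18, adjusted p = 0.417), with means of 4.39 ± 1.38 in antimiR rats and 6.97 ± 2.31 in untreated ZD rats (SD, n = 5 each). The exact permutation p was 0.0952. This value turned on single arrays: without ZD array LF15 the difference was -3.53 (adjusted p = 0.000905), and without antimiR array LF7 it was -3.17 (adjusted p = 0.297).

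Ptgs1 stood at 6.59, 6.79, 6.73, 6.86 and 6.71 after 5 weeks, against 7.75, 8.36, 6.95, 7.51 and 7.20 in untreated ZD rats. Every antimiR array lay below every ZD array, but the difference of -0.81 did not pass (95% interval -1.24 to -0.38, adjusted p = 0.392). Its second probe set was at -0.41 (adjusted p = 0.656), also without overlap, at 4.18 to 4.56 after antimiR and 4.70 to 4.97 in untreated ZD rats. Ptges, at -0.21, and Hpgd, at 0.31, overlapped with untreated ZD rats.

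Between 20 and 5 weeks of antimiR, no pathway gene passed in limma, and 0.00703% of all genes were higher and 0.0141% lower after 20 weeks. Unadjusted p-values were below 0.05 for 2 pathway genes and 868 of all genes. Ptgs2 was 1.30 log2 units lower in the 20-week group, at 3.09 ± 0.37 against 4.39 ± 1.38 in the 5-week group (95% interval of the difference -2.70 to 0.09, adjusted p = 0.826). The exact permutation p was 0.0397, and 0.0714 without array LF7. Ptges was at -0.64 (adjusted p = 0.716) and Ptges2 at -0.16 (adjusted p = 0.755), these being the genes below an unadjusted 0.05.

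**Figure D3:**
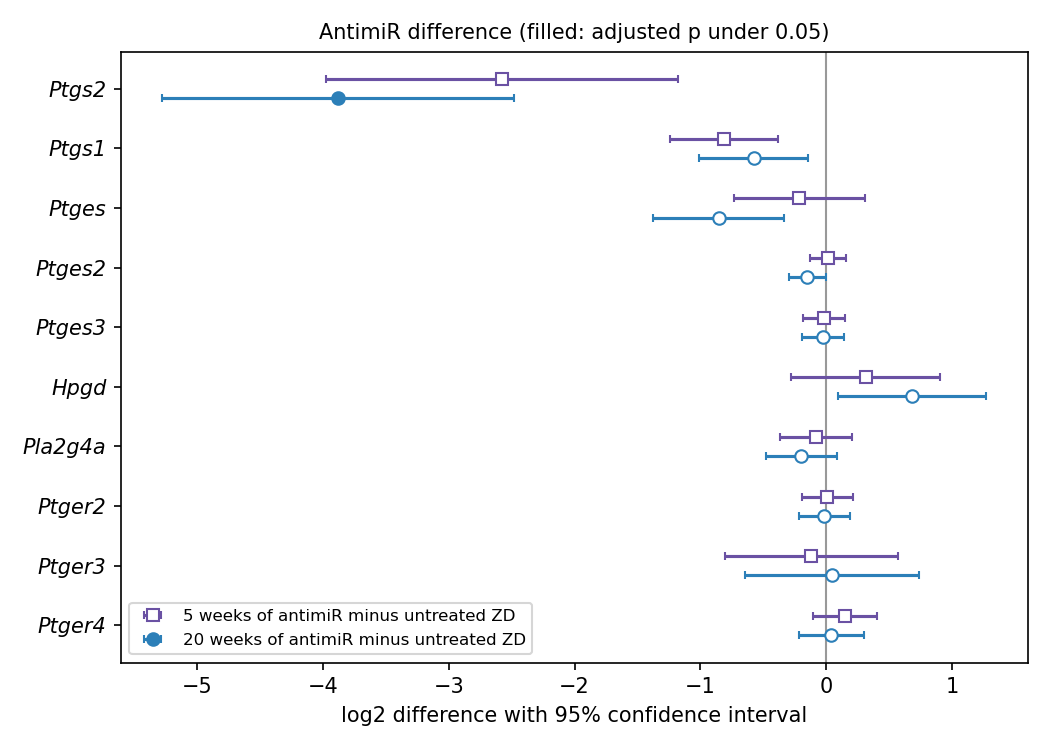
Log2 differences of the 10 genes with 95% confidence intervals, for 5 weeks (squares) and 20 weeks (circles) of antimiR minus untreated ZD; filled symbols have an adjusted p below 0.05. Ptgs2 at 20 weeks, at -3.88, is the one filled symbol, and both series share the 5 untreated ZD arrays.

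In miR-31-/- rats Ptgs2 was low on both diets. The 6 ZD knockout arrays had a lowest, median and highest value of 2.79, 3.23 and 4.14, and the 4 ZS knockout arrays stood at 3.05, 3.20, 3.17 and 3.21. Only LF37 and LF38, at 4.03 and 4.14, lay well above the ZS knockout range, and these arrays also had the lowest smooth muscle means of their group, 9.38 and 9.44. LF39 had the next lowest smooth muscle mean, at 9.63, and the lowest Ptgs2 of the group, at 2.79. Neutrophil and mast cell means were 7.10 on LF37, the highest of the group, and 6.06 on LF38. The part of these cell types in single arrays was not tested. For Ptgs2 the diet difference was 0.25 (SE 0.70, 95% interval -1.18 to 1.67, limma adjusted p = 0.840). The exact permutation p was 0.376, where the smallest possible is 0.00476. This interval, which borrows the spread of the unedited ZD arrays, does not reach the 3.87 seen in unedited rats. With the smooth muscle covariate the difference turned to -0.78 (adjusted p = 0.529).

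Of the 10 genes 1 fell and 0 rose with diet in knockout rats, where 12.0% of all genes fell and 9.47% rose. The gene that fell was Ptgs1, with a lowest, median and highest value of 7.56, 8.13 and 8.46 on ZD and values of 9.11, 8.61, 9.09 and 8.92 on ZS. These ranges did not overlap, and the difference was -0.84 (SE 0.21, adjusted p = 0.00640). It passed whichever array was left out, but a second Ptgs1 probe set went the other way, at 0.21 (adjusted p = 0.402), with ranges of 5.06 to 6.20 on ZD and 5.30 to 5.92 on ZS. The direction for Ptgs1 therefore rests on 1 probe set.

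Several cell type lists moved beside Ptgs1 in these rats, where 12.0% of all genes fell and 9.47% rose. Macrophage genes fell for 5 of 9 members, with array means of 6.73 to 7.43 on ZD and 7.10 to 9.15 on ZS. Fibroblast genes fell for 3 of 8, with means of 9.45 to 10.67 on ZD and 10.06 to 11.92 on ZS, and smooth muscle genes for 4 of 10, with means of 9.38 to 10.96 on ZD and 10.80 to 11.75 on ZS. With the smooth muscle covariate the Ptgs1 difference was -0.69 (adjusted p = 0.0643); the part of the other lists was not tested.

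Hpgd had a lowest, median and highest value of 10.58, 10.78 and 10.94 on ZD and values of 10.30, 10.36, 9.62 and 10.47 on ZS in knockout rats. All ZD knockout arrays lay above all ZS knockout arrays, and the difference of 0.60 missed the threshold (SE 0.29, 95% interval -0.00 to 1.20, adjusted p = 0.148). When the knockout arrays alone were fitted it passed (SE 0.15, adjusted p = 0.0264). Ptges averaged 7.72 ± 0.30 on ZD (n = 6) and 7.71 ± 0.25 on ZS (n = 4), a difference of 0.02 (95% interval -0.52 to 0.55). Its second probe set was at -0.44 (adjusted p = 0.0743).

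The remaining genes did not pass in knockout rats. Pla2g4a was at 0.27 (adjusted p = 0.173), Ptges2 at -0.17 (adjusted p = 0.0960) and Ptges3 at 0.12 (adjusted p = 0.313). Ptger4 was at -0.30 (95% interval -0.56 to -0.03, adjusted p = 0.100), Ptger2 at -0.13 and Ptger3 at 0.28. The pathway median was 0.07, against 0.01 over all genes.

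Whether the diet difference itself differed between knockout and unedited rats was tested as an interaction, the difference in knockout rats minus that in unedited rats. Of the 10 genes 3 were called below 0 and 1 above 0, where 4.61% of all genes were called below and 3.78% above. For Ptgs2 the interaction was -3.62 (SE 0.97, adjusted p = 0.0228), and it passed whichever of the 20 arrays was left out. The limma fit takes 1 spread per gene for all groups, while the SD of Ptgs2 ran from 0.075 on ZS in knockout rats to 2.31 on ZD in unedited rats. No permutation test was made for the interaction. For Ptges it was -1.17 (SE 0.36, adjusted p = 0.0450), and the second probe set gave -1.14 (adjusted p = 0.00625). The call for the first Ptges probe set was lost for 14 of these 20 arrays (adjusted p up to 0.0880).

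The interaction of Hpgd was above 0, at 1.46 (SE 0.41, adjusted p = 0.0274), with 0.60 in knockout and -0.86 in unedited rats. It was lost without ZD array LF12 (1.34, adjusted p = 0.0535) or ZS knockout array LF32 (1.27, adjusted p = 0.0806), and the second probe set was at 1.09 (adjusted p = 0.141). For Ptgs1 it was -1.22 (SE 0.30, adjusted p = 0.0140), while the second probe set was at 0.00. Genotype and array set go together here, so the parts they have in these interactions cannot be told apart.

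Markers of other cell types had interactions as well, where 4.61% of all genes were called below 0 and 3.78% above. Of 9 macrophage genes 4 were called below 0 (median -1.06), of 6 endothelial genes 2 below 0 (median -0.79), and of 8 neutrophil and mast cell genes 1 above and 1 below 0 (median -0.91). No gene of the smooth muscle list was called, with a median of 0.93, and with the smooth muscle mean as a covariate the Ptgs2 interaction was -2.97 (adjusted p = 0.0310). The part of the other lists in these interactions was not tested.

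**Figure D4:**
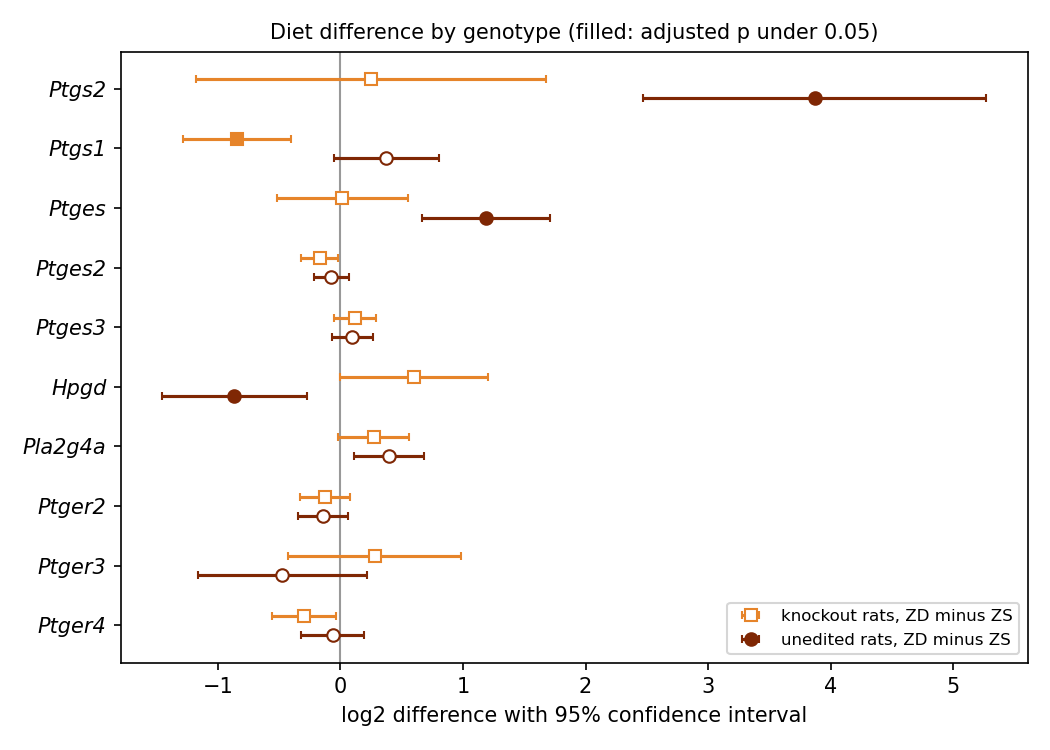
Log2 differences, ZD minus ZS, of the 10 genes with 95% confidence intervals in knockout rats (squares) and unedited rats (circles); filled symbols have an adjusted p below 0.05. Ptgs2 lies at 0.25 in knockout and 3.87 in unedited rats, Ptges at 0.02 and 1.19, and Hpgd at 0.60 and -0.86.

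Array by array, the other genes were compared with Ptgs2 within groups. Ptgs2 varied little in some groups, with an SD of 0.09 on ZS in unedited rats and 0.075 on ZS in knockout rats. A relation could go unseen there. After group means were removed over all 30 arrays, none of the 9 pairs passed. The closest was Ptges3, with r = 0.42 (permutation p = 0.106, adjusted p = 0.478) and rho = 0.46 (permutation p = 0.0230, adjusted p = 0.207). Its r was 0.35 without LF15 and LF7, the 2 arrays farthest out for Ptgs2. For Ptges r was -0.20 (permutation p = 0.390, adjusted p = 0.587), rho was -0.09 (permutation p = 0.656, adjusted p = 0.874), and r without those arrays was 0.03. The other 7 pairs had r between -0.34 and 0.30 and adjusted permutation p-values of 0.478 or more.

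Symbols that only name a locus or clone were left out when genes were ranked by likeness to Ptgs2. The genes most like Ptgs2 over the 20 arrays of unedited rats were not pathway members. By Pearson's r of log2 values they were Cxcl2 (0.92), a neutrophil-attracting chemokine, Krt17 (0.91), a keratin of stressed epithelium, Slc5a5 (0.90), the sodium iodide symporter, Sptssa (0.89), a serine palmitoyltransferase subunit, and Atp11a (0.88), a phospholipid flippase. With group means removed, r was 0.86, 0.81, 0.81, 0.77 and 0.75 in the same order. The highest pathway member was Pla2g4a at 0.52, in place 1247 of the genes ranked, and Ptges stood at 0.44. The arrays share their groups and processing, and these values are descriptions.

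Cxcl2 stood at 4.91, 6.38, 4.59, 5.74 and 3.70 on untreated ZD arrays LF11 to LF15, against 3.83 to 3.87 on ZS arrays. Krt17 stood at 11.02, 13.04, 9.90, 10.93 and 7.16 on those ZD arrays, against 6.78 to 7.69 on ZS arrays. Both were highest on LF12 and lowest on LF15, as Ptgs2 was. Slc5a5, Sptssa and Atp11a were also highest on LF12 and lowest on LF15 within that group, at 5.20 and 3.69, 10.86 and 9.83, and 10.16 and 9.21. These 5 genes were chosen by their likeness to Ptgs2 on the same arrays, LF15 included, so their low values there follow in part from that choice.

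**Figure D5:**
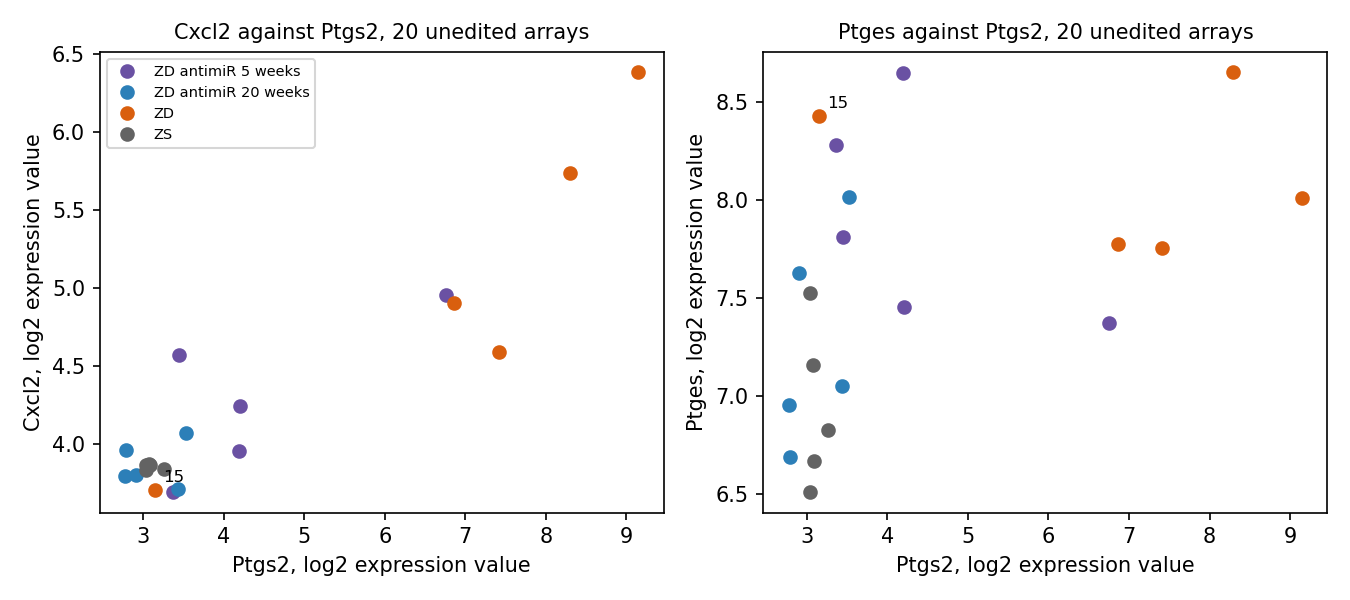
Cxcl2 (left) and Ptges (right) against Ptgs2, in log2 expression values, on the 20 arrays of unedited rats coloured by group; LF15 is marked. On LF15 Cxcl2 is low at 3.70 with Ptgs2 at 3.15, while Ptges is high at 8.43.

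Around the 10 genes, 6 related gene lists were read. Of all genes 6.94% rose and 6.95% fell on ZD in unedited rats, and 9.47% rose and 12.0% fell in knockout rats. Interactions were called above 0 for 3.78% and below 0 for 4.61% of all genes. At these shares, 1 or 2 calls in lists of 8 to 18 genes are not read as a result about the list. For other prostanoid synthases and receptors, 0 of 9 measured genes rose and 2 fell on ZD in unedited rats. Ptgds, the lipocalin-type prostaglandin D2 synthase, fell by 1.74 (SE 0.26, adjusted p = 0.000118), and Ptgis, the prostacyclin synthase, fell by 0.84 (adjusted p = 0.0387). The median of this list was -0.03. None of the 9 passed in knockout rats, and for Ptgds the interaction was 2.07 (SE 0.37, adjusted p = 0.00149).

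Of 12 phospholipase and lipid supply genes, 2 rose and 0 fell on ZD in unedited rats: the secreted phospholipase Pla2g5 rose by 0.85 (adjusted p = 0.0205), and annexin A1, Anxa1, known as an inhibitor of phospholipase A2, rose by 0.57 (adjusted p = 0.0206). In knockout rats, where 9.47% of all genes rose and 12.0% fell, 1 of the 12 rose and 3 fell. These were Pla2g4b at 0.58, Pla2g2d at -1.05, Pla2g15 at -0.33 and Pla2g6 at -0.31. Interactions passed for Mgll (-0.86), a monoacylglycerol lipase that can supply arachidonic acid, Pla2g4b (0.84) and Pla2g2d (-1.12).

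Of 8 genes for prostaglandin transport and further breakdown, 3 rose and 1 fell on ZD in unedited rats. Cbr1, a carbonyl reductase that acts on PGE2, rose by 1.21 (SE 0.22, adjusted p = 0.000955), and Abcc4, an exporter of PGE2, rose by 0.97 (SE 0.18, adjusted p = 0.000831). The reductase Ptgr2 rose by 0.28 and Ptgr3 fell by 0.33. Abcc4 also rose in knockout rats, by 0.96 (SE 0.18, adjusted p = 0.000529), the 1 gene of this list to do so. In the lipoxygenase branch 0 of 10 rose and Alox5, which starts leukotriene synthesis, fell by 0.40 (adjusted p = 0.0245) in unedited rats. In knockout rats Alox5 fell by 0.75 (adjusted p = 0.000109) and its partner Alox5ap by 0.73 (adjusted p = 0.00721), and Aloxe3 rose by 0.48 (adjusted p = 0.0486).

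Among 18 regulators of Ptgs2 transcription and mRNA stability, 4 rose and 1 fell on ZD in unedited rats. The AP-1 member Fosl1 rose by 2.01 (SE 0.48, adjusted p = 0.00645), the C/EBP member Cebpd by 0.87 (SE 0.18, adjusted p = 0.00265), the NF-kB inhibitor Nfkbia by 0.60 (adjusted p = 0.00407) and the cytokine Il1b by 0.95 (adjusted p = 0.0294), while the glucocorticoid receptor Nr3c1, known to repress Ptgs2, fell by 0.80 (adjusted p = 0.00116). The list median was 0.24. In knockout rats 2 rose and 2 fell: Cebpb rose by 0.40 and Jun by 0.41, and the NF-kB subunits Rela and Nfkb1 fell by 0.32 and 0.36. Interactions below 0 passed for Nfkb1 (-0.52, adjusted p = 0.00962), Cebpd (-0.89, adjusted p = 0.0357) and Il1b (-1.39, adjusted p = 0.0377).

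Of 11 genes that PGE2 receptor signalling is known to induce, 3 rose and 1 fell on ZD in unedited rats, with a median of 0.30. The EGF receptor ligand Areg rose by 1.84 (SE 0.47, adjusted p = 0.00979), the angiogenic factor Vegfa by 0.82 (SE 0.13, adjusted p = 0.000236) and Wnt5a by 0.46 (adjusted p = 0.0190), and the decoy receptor Il1r2 fell by 0.89 (adjusted p = 0.0172). After 20 weeks of antimiR, where 0.485% of all genes fell, 2 of the 11 fell. These were Wnt5a, by 0.57 (SE 0.13, limma adjusted p = 0.0385), and Vegfa, by 0.55 (SE 0.13, limma adjusted p = 0.04997). No gene of the other 5 lists passed there. In knockout rats Hbegf rose by 0.68 (adjusted p = 0.0489) and the other 10 did not pass. The Vegfa interaction was -1.05 (SE 0.19, adjusted p = 0.00177). After 5 weeks of antimiR, and between 20 and 5 weeks, 0 genes of these 6 lists passed.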

How the data were processed

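The deposited log2 values per probe set were made by the authors with RMA in Affymetrix Expression Console, per the submitters' processing notes; no version is given in the sources used here. Of 31099 probe sets on 30 arrays, 20826 carried 1 gene symbol, 436 several, 9780 none in the annotation used and 57 were controls. Per symbol, the probe set with the highest mean was kept. limma 3.58.1 in R 4.3.3 fitted 1 coefficient per group over all 30 arrays, with Benjamini-Hochberg adjustment over 14217 genes and a threshold of 0.05. The interaction used differences within each array set. Ptgs2 was also tested with exact two-sided permutation tests, and its pairs with 100000 permutations within groups. The labels do not state more about replicates than separate samples, so p-values measure the spread between these samples. Array data carry no counts, and the number of arrays limits the precision. The fit was tested on simulated data with 1 spread per gene for all groups. That simulation does not cover the unequal spread of Ptgs2 between groups. Named were the 10 genes in each comparison, up to 4 passing genes per list and comparison, and the 5 genes most like Ptgs2; the diet value of Il1b was added after its values were seen. Members and lists were chosen with earlier results of these data known.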

Additional observations from a re-analysis of the deposited data

Results flagged for a closer look

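Of 60 sets of values, 10 genes in 6 groups, 4 held an array that stood apart from the rest of its group by Dixon's 95% criterion, which chance meets in about 1 of 20 groups. Ptgs2 stood at 6.76 on array LF7 of the 5-week antimiR group, against 3.37 to 4.20 on the others. Ptgs2 stood at 3.26 on ZS array LF17, against 3.04 to 3.09. Ptges2 stood at 8.02 on ZD array LF11, against 8.34 to 8.45, and Ptger3 at 6.59 on ZS array LF16, against 5.88 to 6.08. The low Ptgs2 of ZD array LF15, at 3.15, did not meet the criterion, since the other ZD arrays were themselves spread out.

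The diet difference differed between knockout and unedited rats, by the interaction test, for 4 genes: Ptgs2 (-3.62), Ptgs1 (-1.22), Ptges (-1.17) and Hpgd (1.46). Of all genes 4.61% were called below 0 and 3.78% above. The second probe set of Ptgs1 was at 0.00 and that of Hpgd did not pass, while that of Ptges passed. With single arrays left out, the Ptges call was lost in 14 of 20 fits and the Hpgd call in 2.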

How the results depend on the processing

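Every value was recomputed under up to 10 other settings and with each array left out in turn. Of 640 values under other settings 592, and of 820 with 1 array left out 736, kept their direction and their side of the threshold (counts within 1.5 times). These values are not independent checks, and differences that passed in neither fit count as kept. For diet in knockout rats, the compared groups alone and the same array set alone are 1 and the same fit. Settings on several probe sets cannot change the difference of a gene with 1 probe set, such as Ptgs2. The cause of the changes below was not tested unless it is named. With the smooth muscle mean as a covariate, Ptgs2 on ZD in unedited rats was 2.19 and the number of pathway genes called was 0, and in knockout rats Ptgs2 was -0.78 and the number called 0. After 20 weeks of antimiR the number called was 2 with array weights, where Ptges was added at -0.95 (adjusted p = 0.0367). It was 0 when only the compared groups were fitted (Ptgs2 -3.88, adjusted p = 0.154), and 0 without the dimmest 30% of genes, since that filter takes out Ptgs2 itself. In knockout rats the number called was 2 with quantile normalization or array weights, where Ptges2 was added, 2 when only the compared groups or the same array set were fitted, where Hpgd was added, and 0 with the mean of all probe sets. The Hpgd call on ZD in unedited rats was lost with median centring (adjusted p = 0.0522), with the compared groups alone (adjusted p = 0.0905), with the unedited arrays alone (adjusted p = 0.0875), with the mean of all probe sets (adjusted p = 0.0662) and with the covariate (adjusted p = 0.362). Pla2g4a passed there with quantile normalization (adjusted p = 0.0494), median centring (0.0350), array weights (0.0321) and without dim genes (0.0455). The Ptges interaction was lost with quantile normalization (adjusted p = 0.0540), median centring (0.0619) and the covariate (0.0512), and that of Hpgd with the mean of all probe sets (adjusted p = 0.0566).

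With 1 array left out, the number called ran from 2 to 3 for diet in unedited rats, from 1 to 2 for 20 weeks and from 0 to 1 for 5 weeks of antimiR, and from 2 to 4 for the interaction, with 2 where ZD array LF12 or ZS knockout array LF32 was left out. Ptgs2 ran from 3.33 to 4.83 for diet in unedited rats, from -4.84 to -3.34 for 20 weeks (adjusted p up to 0.0492) and from -3.53 to -2.04 for 5 weeks of antimiR. The exact permutation p of Ptgs2 ran from 0.00794 to 0.0238 for diet in unedited rats, from 0.00794 to 0.0317 for 20 weeks, from 0.0159 to 0.135 for 5 weeks, and from 0.0159 to 0.0714 between 20 and 5 weeks.

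Sign changes of single genes, 58 in all, were of differences that did not pass under either setting (smallest adjusted p 0.501). With median centring Ptges3 was 0.0045 for 20 weeks, 0.0044 for 5 weeks and 0.0002 between them, and Ptger2 was 0.013 for 20 weeks. With array weights Ptger2 was 0.034 for 20 weeks, Ptges -0.020 for diet in knockout rats and Ptges3 -0.0083 for the interaction. The covariate gave Ptges3 0.0081 for 20 weeks, 0.0079 for 5 weeks and 0.0001 between them, and Ptger3 -0.051 for 20 weeks. Quantile normalization gave Ptger2 -0.014 for 5 weeks, and the mean of all probe sets gave Ptges -0.21 in knockout rats. The r of Ptgs2 with Ptger4 was -0.033 on the 20 unedited arrays alone. With 1 array left out, Ptges2 ran from -0.11 to 0.0031 for diet in unedited rats. For 20 weeks Ptges3 ran from -0.084 to 0.016, Ptger2 from -0.079 to 0.040, Ptger3 from -0.27 to 0.33 and Ptger4 from -0.022 to 0.12. For 5 weeks Ptges2 ran from -0.060 to 0.061, Ptges3 from -0.068 to 0.071, Pla2g4a from -0.17 to 0.012, Ptger2 from -0.053 to 0.065 and Ptger3 from -0.43 to 0.18. Between 20 and 5 weeks Ptges3 ran from -0.096 to 0.044, Ptger2 from -0.089 to 0.020 and Ptger3 from -0.13 to 0.45. Ptges ran from -0.077 to 0.12 in knockout rats, and for the interaction Ptges3 ran from -0.025 to 0.065 and Ptger2 from -0.044 to 0.081. No paired analysis was possible because each rat has its own LF number and the groups compared share none. Values near the lower end of the scale, as for Ptgs2 outside ZD, Ptger2 and Ptger4, limit what small differences can be seen.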
